A study of Mus musculus with 19 samples.

Results

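Genes of mitochondrial fatty acid oxidation and the carnitine shuttle were followed in liver RNA of 10 mutant *Mmut*-ko/ki mice and 9 control *Mmut*-ki/wt mice. The set was given as 35 gene symbols: acyl-CoA synthetases, genes of carnitine synthesis and transport, the enzymes of the oxidation spiral and the electron transfer flavoprotein with its dehydrogenase. Of these, 32 are named by a probe set in the annotation used here, among 19505 genes measured in all, while *Acsl1*, *Acsl3* and *Etfb* were not analysed here. Mutants carried a knockout allele of *Mmut*, the gene of methylmalonyl-CoA mutase, together with a knock-in allele (MMUT-p.Met700Lys, modelled on a patient's missense mutation), and controls carried the same knock-in allele together with a wild-type one. No group without the knock-in allele was measured. All mice were C57BL/6N males, aged 20 weeks by the labels (a legend in the study gives another age), kept on a high-protein diet and fed *ad libitum*, and each was measured on 1 Mouse Clariom S array, on which most genes have a single probe set. Values are log2 signals, so that a difference of 1 is a doubling, and a level is compared only between mice for the same gene.

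Fatty acids reach the mitochondrial matrix as acyl-CoA only after a detour. Acyl-CoA synthetases charge them with coenzyme A, carnitine palmitoyltransferase 1 on the outer membrane passes the acyl chain to carnitine, the carrier encoded by *Slc25a20* exchanges the acylcarnitine for free carnitine across the inner membrane, and carnitine palmitoyltransferase 2 restores the acyl-CoA. Inside, a dehydrogenase, a hydratase, a second dehydrogenase and a thiolase shorten the chain in repeated rounds, with electrons leaving through the electron transfer flavoprotein. In liver the pathway is best known for feeding ketone body synthesis and gluconeogenesis during fasting, and many of its genes are known targets of the fatty acid receptor PPARα.

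The check of the genotype came first: *Mmut* fell in mutant liver, to 11.54 ± 0.25 (SD, n = 10), against 13.20 ± 0.23 (SD, n = 9) in controls, with all 10 mutants below every control. Between 69.8% and 77.1% of probe sets were detected above background in mutants and between 68.0% and 72.7% in controls. All 8 hepatocyte markers were detected, 0 rose and 1 (*Asgr1*) fell, a call lost in most repeats of the test. Of 6 markers of Kupffer cells, the resident macrophages of the liver, 4 rose (*Clec4f*, *Vsig4*, *Cd5l* and *Adgre1*), and the summed linear signal of all 6 ran from 4330 to 15000 in mutants, against 3230 to 5760 in controls. The summed signals overlapped, and the count of calls was 2 of the 6 when control replicate 2, 3 or 5 or mutant replicate 3 was left out, and it was 2 by the parametric test that the study's methods name and 1 by their Wilcoxon test. Of 5 endothelial markers 4 had a higher mean in mutants and 1 a lower one, and only 1 (*Clec4g*) rose. Their summed signal ran from 5220 to 7150 in mutants and from 3690 to 5220 in controls. Of 6 stellate cell markers 4 had a higher mean in mutants and 1 (*Reln*) fell, a call lost with the replicate block, while their summed signal ran from 36000 to 50800 in mutants, against 33200 to 41600 in controls. Of 4 cholangiocyte markers 2 were higher and 2 lower, of which 1 (*Sox9*) fell, and *Krt19* was detected on no array. The summed signal of these 4 cholangiocyte markers ran from 98.7 to 193 in mutants and from 144 to 239 in controls. Of 2 erythroid markers 1 was higher (change 0.05) and 1 (*Alas2*) fell (change -1.89). The summed signal of these 2 erythroid markers ran from 313 to 966 in mutants and from 1220 to 2370 in controls, without overlap. The part of these markers in the values below was not tested, and in whole tissue a change in the number of cells of a type and a change in RNA per cell cannot be told apart. Markers of adipocytes, muscle and heart, other tissues that oxidize or store fatty acids, gave 0 calls among 5 and 8 measured genes, and *Adipoq*, *Lep* and *Myh4* were detected on no array.

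Of the 32 measured members 10 rose in mutant liver, 1 fell and 21 did not pass the test (limma, adjusted p under 0.05 over all 19505 genes). Rises made up 31.2% of the measured members, against 4.73% of all genes, and falls 3.12%, against 5.33% of all genes. The median log2 change of the members was 0.27, against 0.00 over all genes, and 27 of the 32 had a higher mean in mutants. By listed role, the rises were found in carnitine uptake (*Slc22a5*), in the shuttle (*Crat*, *Slc25a20*, *Cpt1c*) and among the dehydrogenases (*Acadl*, *Acadm*, *Acad11*). They were also found in the later steps of the spiral (*Hadhb*, *Hadh*) and in 1 medium-chain synthetase (*Acsm5*), while the single fall was a long-chain synthetase (*Acsl5*). The roles group the genes and do not say where in the cell each protein acts. Every mutant lay above every control for 2 members, *Acadl* and *Acsm5*, which is a separation seen in 0.933% of all genes. In 29 repeats of the test with another setting or with 1 array left out, 8 of the 10 rose every time, and the exceptions were *Cpt1c* and *Acad11*. The plot of changes by role shows how unevenly the rises were spread within each step.

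**Figure D1:**
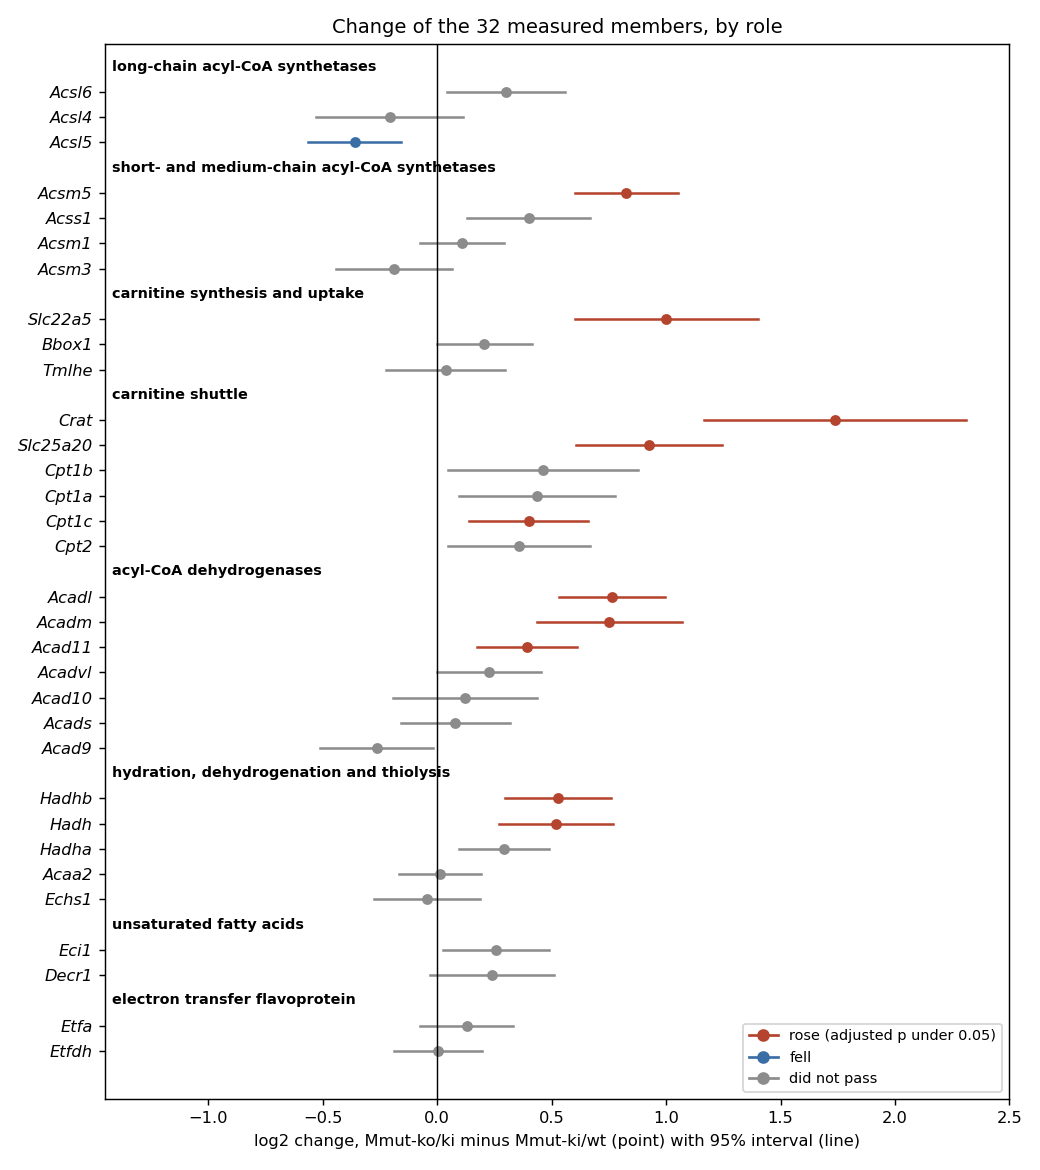
Log2 change of each of the 32 measured members in Mmut-ko/ki liver relative to Mmut-ki/wt liver (points), with its 95% interval (lines), in blocks by role and sorted within each block. Red points rose (10 genes), the blue point fell (Acsl5) and grey points did not pass; Crat stands farthest right at 1.74.

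Carnitine enters the cell through the sodium-dependent transporter OCTN2, encoded by *Slc22a5*. Its log2 signal was 6.48 at the lowest, 7.12 at the median and 7.91 at the highest in mutants, against 5.76, 6.13 and 6.55 in controls. Of 10 mutants 9 lay above every control, and the change was 1.00 (standard error 0.19, 2.00-fold, adjusted p = 0.000883). The mutants were spread more widely than the controls, with SDs of 0.57 (n = 10) and 0.31 (n = 9). The genes for making carnitine did not pass. *Bbox1*, which encodes the last enzyme of carnitine synthesis, averaged 14.84 ± 0.15 in mutants and 14.63 ± 0.19 in controls (SD, adjusted p = 0.233). *Tmlhe*, which encodes the first, averaged 9.26 ± 0.32 in mutants and 9.22 ± 0.17 in controls (SD), and the 95% interval of its change ran from -0.22 to 0.30.

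All 6 genes listed under the shuttle had a higher mean in mutants and 3 rose. *Crat*, the carnitine acetyltransferase that moves short acyl groups between coenzyme A and carnitine, had the largest change of any measured member. Its signal was 9.28, 10.37 and 11.30 in mutants (lowest, median and highest), against 7.41, 8.59 and 9.82 in controls. The change was 1.74 (standard error 0.28, 3.34-fold, adjusted p = 0.000107, exact permutation p = 0.000141). The groups overlapped only through 2 mutants and 1 control: mutant replicates 5 and 7, at 9.28 and 9.36, lay below control replicate 5 at 9.82, and the next control stood at 8.98. *Slc25a20*, the carnitine-acylcarnitine carrier of the inner membrane, had 12.22, 12.66 and 13.16 in mutants, against 11.27, 11.90 and 12.53 in controls. It rose by 0.92 (standard error 0.16, 1.90-fold, adjusted p = 0.000196), and 8 of 10 mutants exceeded every control.

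The palmitoyltransferases on either side of the carrier moved less. *Cpt1a*, the liver form of the outer enzyme and the regulated entry point of the pathway, had 12.22, 12.61 and 13.27 in mutants, against 11.60, 12.18 and 13.14 in controls. Its change of 0.44 (standard error 0.17) did not pass (adjusted p = 0.102), and only 1 mutant exceeded every control. The highest control, replicate 5, decided that call: with it left out the change was 0.55 (adjusted p = 0.0172). *Cpt2*, the inner enzyme, averaged 11.37 ± 0.25 in mutants and 11.02 ± 0.42 in controls (SD, change 0.36, adjusted p = 0.150). Within an array, the difference between *Slc25a20* and *Cpt1a* was 0.49 larger in mutants than in controls (standard error 0.13), and that between *Slc25a20* and *Cpt2* was 0.57 larger (standard error 0.17). These pairs, like the other pairs of members set against each other here, were picked after their values had been seen and carry no test.

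The other genes of the *Cpt1* family were dim. *Cpt1b*, the muscle form, was detected on 10 of 10 mutant arrays and 8 of 9 control arrays and had 4.91, 5.31 and 6.19 in mutants, against 4.33, 4.95 and 5.71 in controls. It did not pass (change 0.46, standard error 0.20, adjusted p = 0.168). *Cpt1c*, a form known from neurons, was detected on 10 mutant arrays and 7 control arrays, with 3.69, 4.26 and 4.61 in mutants, against 3.45, 3.71 and 4.23 in controls. It rose by 0.40 (standard error 0.13, adjusted p = 0.0423), with 6 mutants above every control. This is the least secure of the calls: it was lost in 15 of 29 repeats, 12 of them with 1 array left out, where the adjusted p of the lost calls ran from 0.0569 to 0.0876. The 8 markers of muscle and heart, the tissues where *Cpt1b* is the main form, all missed the threshold, with summed signals of 198 to 247 in mutants and 177 to 232 in controls.

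**Figure D2:**
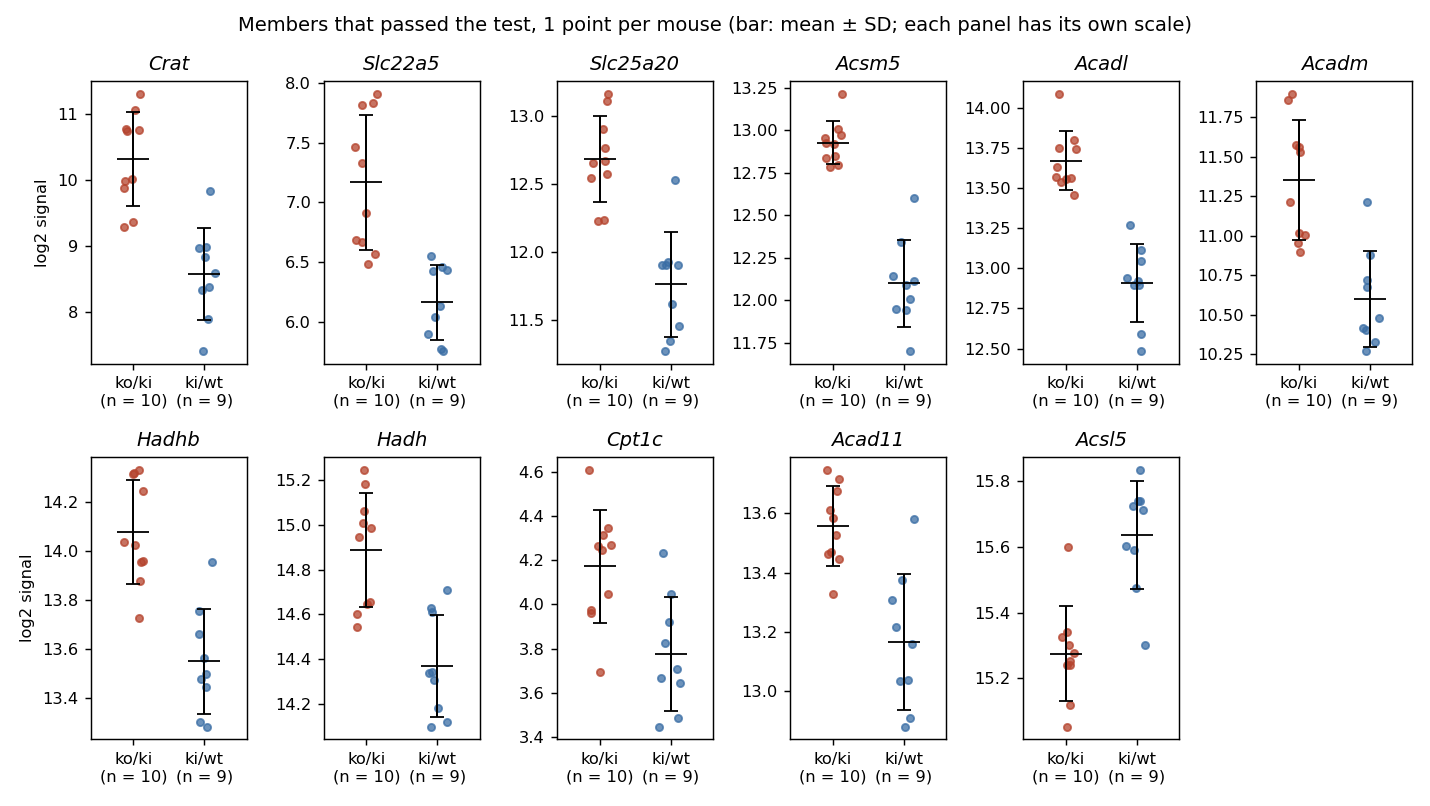
Log2 signal of the 11 members that passed the test, 1 point per mouse, with Mmut-ko/ki mice (red, n = 10) left of Mmut-ki/wt mice (blue, n = 9); bars give the mean and SD, and each panel has its own scale. The groups do not overlap for Acsm5 and Acadl, overlap through a few mice for Crat, Slc22a5 and Slc25a20, and run the other way for Acsl5.

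Acyl-CoA dehydrogenases start each round of oxidation, and each prefers a range of chain lengths. The genes for long and medium chains rose and those for very long and short chains did not pass. *Acadl*, the long-chain enzyme, had 13.45, 13.60 and 14.09 in mutants, against 12.49, 12.92 and 13.27 in controls. All 10 mutants lay above all 9 controls, with a change of 0.76 (standard error 0.11, 1.70-fold, adjusted p = 4.05e-05). The exact permutation p of 1.08e-05 is the smallest that the 92378 splits of the arrays can give. *Acadm*, the medium-chain enzyme, had 10.89, 11.37 and 11.90 in mutants, against 10.27, 10.48 and 11.21 in controls. It rose by 0.75 (standard error 0.15, 1.68-fold, adjusted p = 0.00154), but only 5 mutants exceeded every control, since control replicate 5 reached 11.21 and the mutants were spread more widely (SD 0.38 in mutants, 0.30 in controls).

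By contrast, *Acadvl*, the very-long-chain enzyme of the inner membrane, averaged 13.35 ± 0.23 in mutants and 13.13 ± 0.18 in controls (SD, change 0.23, adjusted p = 0.230). *Acads*, the short-chain enzyme, averaged 10.73 ± 0.25 in mutants and 10.65 ± 0.19 in controls (SD), and the 95% interval of its change ran from -0.16 to 0.32. Set against each other within an array, *Acadl* minus *Acadvl* was 0.32 ± 0.12 in mutants and -0.22 ± 0.26 in controls (SD), and all 10 mutants lay above every control. For this and every other pair, the sign within a group is not read, since levels of different genes are not compared. *Acadm* minus *Acads* was 0.62 ± 0.40 in mutants and -0.05 ± 0.32 in controls (SD), with 5 mutants above every control. The difference between *Acadl* and *Acadm* was 2.32 ± 0.28 in mutants and 2.31 ± 0.22 in controls (SD), so that the changes of these 2 genes were 0.01 apart (standard error 0.12).

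Of the remaining family members, *Acad11* had 13.33, 13.56 and 13.75 in mutants, against 12.88, 13.16 and 13.58 in controls. It rose by 0.39 (standard error 0.11, adjusted p = 0.0170), with 5 mutants above every control. *Acad9*, whose product is also an assembly factor of respiratory complex I, had the only lower mean of the family, with 8.99 ± 0.23 in mutants and 9.26 ± 0.25 in controls (SD, change -0.26, adjusted p = 0.188). *Acad10* averaged 6.78 ± 0.34 in mutants and 6.66 ± 0.34 in controls (SD, adjusted p = 0.712).

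The trifunctional protein of the inner membrane carries out the last 3 steps of a round on long chains, with the hydratase and dehydrogenase on the alpha subunit (*Hadha*) and the thiolase on the beta subunit (*Hadhb*). The genes lie head to head, so that a single stretch separates their start sites. This stretch is shown because it stands before both genes of 1 complex, of which 1 passed the test and the other narrowly missed it. In RefSeq's promoter table (GRCm38.p6) it spans 272 bases, chr5:30154981-30155252, and is written here on the plus strand from the *Hadha* side to the *Hadhb* side, with capitals for the GC box GGGCGG, the letters known as a binding motif of SP1.
Hadha to Hadhb: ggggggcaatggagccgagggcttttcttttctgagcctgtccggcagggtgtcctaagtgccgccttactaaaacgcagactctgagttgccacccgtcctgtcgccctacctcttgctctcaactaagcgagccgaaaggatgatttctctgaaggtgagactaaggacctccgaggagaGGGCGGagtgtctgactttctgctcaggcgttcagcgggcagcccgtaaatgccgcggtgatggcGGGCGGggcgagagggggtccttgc

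It holds 2 GC boxes, which begin 183 and 248 bases from the *Hadha* start, 0 copies of CCAAT on either strand, and 60.3% G or C, against a median of 53.0% over all promoter windows. A GC box stands in 35.9% of all windows of 300 bases and CCAAT in 37.4%, so that neither the match nor the lack of one is unusual. *Hadhb* had 13.73, 14.03 and 14.33 in mutants, against 13.28, 13.50 and 13.95 in controls. It rose by 0.53 (standard error 0.11, 1.44-fold, adjusted p = 0.00245), and 8 mutants exceeded every control. *Hadha* had 15.18, 15.45 and 15.64 in mutants, against 14.96, 15.11 and 15.31 in controls, with 7 mutants above every control. Its change of 0.29 (standard error 0.10) missed the threshold (adjusted p = 0.0538) but passed it in 9 of 29 repeats, among them both tests of the study's methods (adjusted p = 0.00969 by the parametric test and 0.0226 by the Wilcoxon test). Within an array, *Hadhb* minus *Hadha* was -1.35 ± 0.10 in mutants and -1.59 ± 0.17 in controls (SD), which puts the changes of the 2 subunits 0.24 apart (standard error 0.06).

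For shorter chains the same steps are shared among single enzymes. *Hadh*, the dehydrogenase for short and medium hydroxyacyl chains, had 14.55, 14.97 and 15.25 in mutants, against 14.10, 14.34 and 14.71 in controls. It rose by 0.52 (standard error 0.12, 1.43-fold, adjusted p = 0.00566), with 6 mutants above every control. *Echs1*, the short-chain hydratase before it, averaged 13.63 ± 0.22 in mutants and 13.68 ± 0.20 in controls (SD). *Acaa2*, the thiolase after it, averaged 17.43 ± 0.10 in mutants and 17.42 ± 0.10 in controls (SD). Both intervals lay close around 0, from -0.27 to 0.19 for *Echs1* and from -0.17 to 0.19 for *Acaa2*, and the sign of either change turned under another setting.

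Unsaturated chains need *Eci1*, an enoyl-CoA isomerase, and *Decr1*, a dienoyl-CoA reductase. *Eci1* averaged 10.15 ± 0.22 in mutants and 9.90 ± 0.21 in controls (SD, adjusted p = 0.173), and *Decr1* averaged 12.91 ± 0.24 in mutants and 12.67 ± 0.32 in controls (SD, adjusted p = 0.293). The electron transfer genes also failed the test. *Etfa* averaged 15.40 ± 0.15 in mutants and 15.27 ± 0.17 in controls, and *Etfdh*, which hands the electrons on to ubiquinone, averaged 15.53 ± 0.14 in mutants and 15.52 ± 0.12 in controls (SD). The 95% interval of the change was -0.08 to 0.33 for *Etfa* and -0.19 to 0.20 for *Etfdh*. The changes of *Slc25a20*, *Acadl* and *Acadm* lay outside both intervals, but the difference between those genes and the electron transfer genes was not tested.

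The synthetases at the entrance of the pathway went in different directions. *Acsl5*, a long-chain synthetase of mitochondria and endoplasmic reticulum, was the only member that fell. It had 15.05, 15.26 and 15.60 in mutants, against 15.30, 15.71 and 15.84 in controls, with 7 mutants below every control. The change was -0.36 (standard error 0.10, adjusted p = 0.0179, exact permutation p = 0.000336), which makes the mutant level 0.779 of the control level. It fell in all 29 repeats. *Acsl4*, which prefers polyunsaturated chains such as arachidonate, had 11.62, 11.92 and 12.34 in mutants, against 11.43, 12.20 and 12.81 in controls (adjusted p = 0.475). *Acsl6*, best known from brain, was detected on 10 mutant arrays but only 4 of 9 control arrays, with 3.61, 3.93 and 4.25 in mutants, against 3.18, 3.57 and 4.13 in controls (adjusted p = 0.142, or 0.0457 without control replicate 1).

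Among the short- and medium-chain synthetases, *Acsm5* had the smallest adjusted p of any member. It had 12.78, 12.92 and 13.21 in mutants, against 11.70, 12.09 and 12.60 in controls, so that the groups did not overlap. The change was 0.83 (standard error 0.11, 1.77-fold, adjusted p = 7.84e-06), and the mutants lay closer together than the controls (SD 0.13 in mutants, 0.26 in controls). Its relatives did not follow. *Acsm1* averaged 14.84 ± 0.13 in mutants and 14.73 ± 0.10 in controls (SD, adjusted p = 0.529), and *Acsm3* averaged 12.21 ± 0.26 in mutants and 12.40 ± 0.23 in controls (SD, adjusted p = 0.390). In RefSeq's gene order *Acsm5*, *Acsm2*, *Acsm1* and *Acsm4* are direct neighbours, and *Acsm3* lies a few genes on. *Acsm2* and *Acsm4* were measured too and also did not pass. Within an array, *Acsm5* minus *Acsm1* was -1.91 ± 0.18 in mutants and -2.63 ± 0.27 in controls (SD, 8 mutants above every control), and *Acsm5* minus *Acsm3* was 0.71 ± 0.31 in mutants and -0.30 ± 0.34 in controls (SD, 10 mutants above every control). *Acss1*, the mitochondrial acetyl-CoA synthetase, averaged 4.79 ± 0.29 in mutants and 4.39 ± 0.26 in controls (SD) and missed the threshold narrowly (change 0.40, standard error 0.13, adjusted p = 0.0534).

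The rises were not of the same size in every mutant, as the heat map of members by array shows. Over the 10 risen members, mutant replicate 3 was the highest mutant for 5 and among the top 3 for 9. Mutant replicate 9 was highest for 3, and replicate 8 for the remaining 2. Mutant replicates 5 and 7 were among the top 3 for 0 of the 10. Among the controls, replicate 5 was highest for 4 of the 10 and among the top 3 for 8, and replicate 1 was highest for 3. Leaving out control replicate 5 gave 11 risen members, with *Cpt1a* and *Hadha* gained and *Cpt1c* lost. Counted over all 32 measured members, each mutant exceeded the control mean for 21 to 28 of them. *Fgf21*, a hormone of fasting liver, was also highest in 2 of these mice, at 8.39 in mutant replicate 3 and 7.30 in mutant replicate 9, and at most 5.76 in the other mutants and 4.86 in the controls. The receptor gene *Pparg* was highest in mutant replicates 8, 3 and 9, at 9.54, 9.43 and 9.35, against at most 6.39 in the controls. The coactivator gene *Ppargc1a* had another order, with 11.76 in mutant replicate 5 and 11.38 in replicate 4. It was at 10.30 in replicate 3 and 9.34 in replicate 9, against at most 9.49 in the controls. The kinase gene *Prkaa2* was highest in mutant replicate 1, at 12.74, followed by replicate 8 at 12.70. These ranks describe 19 mice and carry no test.

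**Figure D3:**
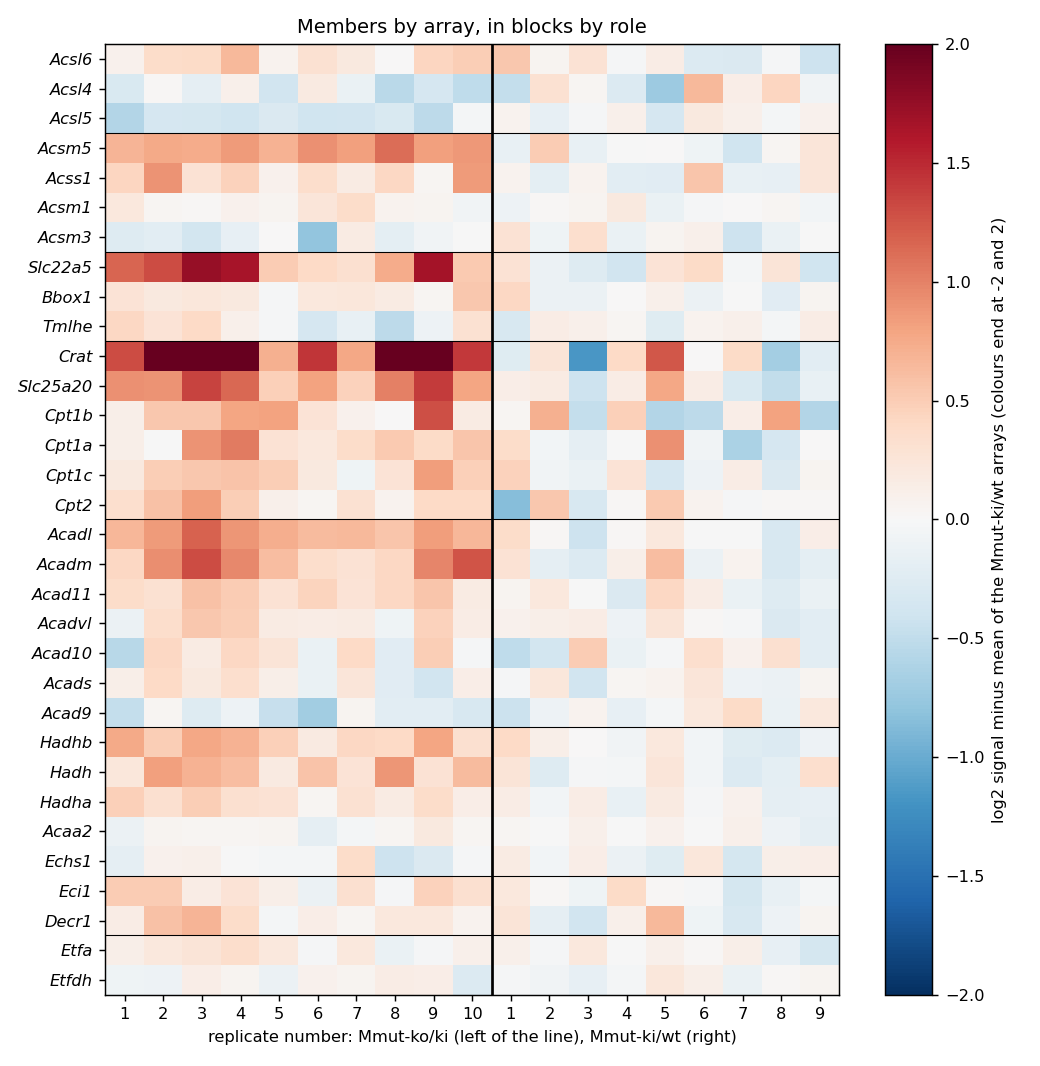
Log2 signal of the 32 measured members on each array minus the mean of the Mmut-ki/wt arrays, with the 10 Mmut-ko/ki mice left of the line, the 9 Mmut-ki/wt mice right of it, and blocks of rows by role; colours end at -2 and 2. Crat, Slc22a5, Slc25a20, Acadl, Acadm, Hadhb and Acsm5 are red across the mutants, Acadl most strongly in replicate 3, with Crat at the end of the scale in replicates 2, 3, 4, 8 and 9, and control replicate 5 is red for Crat, Slc25a20, Cpt1a and Acadm.

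PPARα acts with RXR on a pair of AGGTCA half-sites in the same direction with 1 base between them. The promoter windows of the members, 250 bases before to 50 after each RefSeq start (GRCm38.p6), were searched on both strands for the single half-site AGGTCA and for the pair with up to 2 mismatches in its 12 fixed bases. Windows were found for 29 of the 35 members, and *Crat*, the member with the largest change, was among those without one. Stretches around matches in 2 members that rose and 2 that did not are shown to set the letters beside the values, 5′ to 3′ along the strand of the gene, with the match in capitals (TGACCT is AGGTCA read on the opposite strand).
Slc25a20, chr9:108662134-108662162, plus strand: ctgaatgtAGGTGAAAGGTCGgcggagcc
Acadm, chr3:153944879-153944893, minus strand: gTGACCTtcgggctc
Echs1, chr7:140116484-140116512, minus strand: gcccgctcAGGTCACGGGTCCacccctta
Etfa, chr9:55512300-55512328, minus strand: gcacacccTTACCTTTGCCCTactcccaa

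A pair was found in 3 members, *Slc25a20*, which rose, and *Echs1* and *Etfa*, which did not pass, and in 3.87% of all 32544 windows. The pair in *Slc25a20* starts 7 bases after the start site, and the pair in *Etfa* reads on the opposite strand. The half-site in *Acadm* begins at -249 from the start site, at the edge of the window, so that its stretch is cut short. The exact half-site was found for *Acadm* and *Cpt1c* among the members that rose (2 of 9 windows) and for *Acsm1*, *Echs1*, *Acsl6*, *Acadvl* and *Cpt1a* among the measured members that did not rise (5 of 19 windows), and in 16.2% of all windows. The windows are short, and no match says only that the letters are not in them.

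Other genes of the pathway, listed beside the members, moved in both directions. Of 20 other genes listed under mitochondrial fatty acid oxidation 6 rose and 3 fell, with a median change of 0.19. The list is broad, and not all of its genes encode mitochondrial enzymes of oxidation. One of the falls, *Acacb* (change -0.74), is the gene of an acetyl-CoA carboxylase. *Acot2*, a mitochondrial thioesterase that releases free fatty acids from acyl-CoA, averaged 10.21 ± 0.78 in mutants and 8.06 ± 0.53 in controls (SD, change 2.15, adjusted p = 3.37e-06). *Acot13*, another thioesterase, rose by 0.74, *Acsf2*, a synthetase for medium chains, by 0.65, and *Ech1*, an isomerase for dienoyl chains, by 0.83, with adjusted p from 6.75e-05 to 0.000135. The largest fall by adjusted p was that of *Acadsb*, the dehydrogenase for short branched chains of isoleucine breakdown, at 11.08 ± 0.19 in mutants and 11.90 ± 0.18 in controls (SD, change -0.82, adjusted p = 5.72e-06), and each of the 10 mutants lay lower than the lowest control. *Hsd17b10*, a later enzyme of isoleucine breakdown, had a change of -0.70 (standard error 0.14, adjusted p = 0.00185), with 9 mutants below every control.

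In peroxisomes, which shorten very long chains before they pass to mitochondria, 6 of 14 measured genes rose and 2 fell, with a median change of 0.17. Rises made up 42.9% and falls 14.3% of these genes, against 4.73% and 5.33% of all genes. The count of falls was 1 when control replicate 4 or 6 or mutant replicate 4 was left out and with the replicate block. *Abcd2*, a transporter of very-long-chain acyl-CoA, averaged 11.58 ± 0.52 in mutants and 7.79 ± 1.13 in controls (SD, change 3.79, adjusted p = 1.57e-08). *Acaa1a*, a thiolase, rose by 0.83 (adjusted p = 0.000112) and *Hsd17b4*, the D-bifunctional protein, by 0.45 (adjusted p = 0.00880), beside *Acaa1b* (1.62) and *Ehhadh* (1.07). *Pecr*, a trans-enoyl-CoA reductase, had a change of -0.46 (adjusted p = 0.0172). Of 11 measured regulators 4 rose and 0 fell: *Pparg* by 3.25, *Fgf21* by 1.63, *Ppargc1a* by 1.03 and *Prkaa2*, a catalytic subunit of AMP-activated kinase, by 0.43 (adjusted p from 2.81e-09 to 0.0186). Rises made up 36.4% of the measured regulators, against 4.73% of all genes. *Ppargc1a* did not pass by the parametric test of the study's methods when that test was adjusted over all genes (adjusted p = 0.0668). *Ppara* itself, the gene of the receptor, did not pass (change 0.11, adjusted p = 0.747). The plot of the other genes of the pathway sets these changes side by side.

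**Figure D4:**
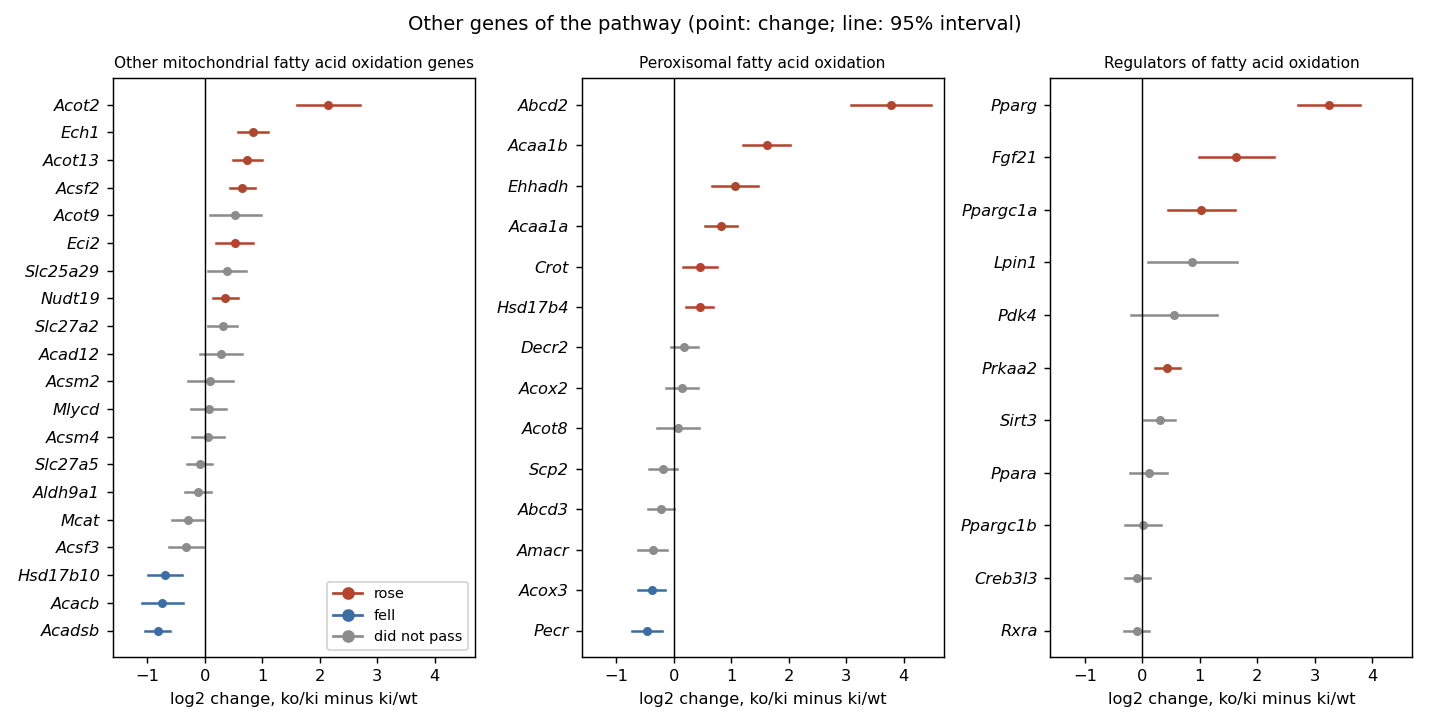
Log2 change in Mmut-ko/ki liver relative to Mmut-ki/wt liver (points) with its 95% interval (lines), sorted within each panel. The panels hold 20 other genes listed under mitochondrial fatty acid oxidation, 14 peroxisomal genes and 11 regulatory genes. Abcd2 at 3.79, Pparg at 3.25 and Acot2 at 2.15 lead their panels, and the mitochondrial panel ends with 3 falls, Hsd17b10, Acacb and Acadsb.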

How the data were processed

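Amplified liver RNA of 10 mutant and 9 control mice was read on Mouse Clariom S arrays. The authors normalized the scans with SST-RMA, a variant of RMA, and deposited log2 signals, each with a detection p-value, and the genome build of the annotation is not given in the sources used here. A second deposited log2 table differed by at most 5e-04. Of 22206 probe sets, 19572 name 1 gene, and the brightest stands for each of the 55 genes with several, with no filter on dim signals. Groups were compared with limma 3.58.1 in R 4.3.3 (lmFit, eBayes, two-sided) and Benjamini-Hochberg adjustment over all 19505 genes, threshold 0.05. Single values also had a two-sided exact permutation test over 92378 splits. Detection means a p under 0.05, and marker sums add linear signals. The number of arrays limits the precision.

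The methods' t-test (the parametric test) and Wilcoxon test, the second table, trend and robust variance settings, median centring, quantile normalization, a filter on dim probe sets, array weights, probe set means, a replicate block and leaving out each array were alternatives. The t-test and Wilcoxon test were adjusted here over all genes, a step that the study's methods do not mention. Comparisons of 2 members within an array were added after the data had been seen. The members, gene lists and markers were chosen with earlier results of these data known. The text names every measured member, *Mmut*, and in each other list the genes that passed, at most 6 by adjusted p. *Acsm2*, *Acsm4*, *Acacb*, *Ppara* and single markers are named outside that rule. Sequences come from RefSeq (GRCm38.p6). The script was tested on simulated data. Image files and the study's qRT-PCR and plasma data were not used here. Python 3.11.15 with pandas 2.3.3, scipy 1.17.1 and matplotlib 3.10.9 served for the other steps.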

Additional observations from a re-analysis of the deposited data

Results flagged for a closer look

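In 98 groups of arrays, 2 for each of 49 named genes, 3 held an array that stood apart from its group by Dixon's test, where chance alone gives about 1 in 20. *Acsl5* was at 15.60 in mutant replicate 10, above the next mutant at 15.34. *Acsm5* was at 13.21 in mutant replicate 8, above the next mutant at 13.01, and the mean of the other mutants was 12.89. *Hsd17b4* was at 14.07 in control replicate 3, below the next control at 14.55.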

How the results depend on the processing

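The count of genes changed was 1962, with 1488 to 2159 under 10 other settings and 1674 to 2220 with 1 array left out. The count of members that rose was 10, with 8 to 12 under the other settings and 9 to 12 with 1 array left out, and *Acsl5* was the single fall each time. The replicate block used only the replicate numbers found in both groups, so that mutant replicate 10 was left out as well. This setting gave 1488 genes and 8 risen members, without *Acad11* (adjusted p = 0.0527) and *Cpt1c* (adjusted p = 0.107). The labels do not say whether equal replicate numbers pair the mice. Of 9 pairs with the same number, 0 deviated together at a correlation above 0.1 (-0.093 to 0.058). That check cannot settle whether the numbers mark a shared litter or batch. *Cpt1c* was also lost with the trend and robust settings (adjusted p = 0.0596) and with median centring (0.0588). *Acss1* passed without dim probe sets (adjusted p = 0.0373), with array weights (0.0432) and without 5 of the arrays in turn. Signs turned only for changes near 0. *Echs1* was at 0.00374 with quantile normalization, *Acaa2* at -0.0231 with median centring, *Etfdh* at -0.0311 with median centring and -0.00904 with array weights, and *Acadl* minus *Acadm* at -0.00224 with quantile normalization. With 1 array left out, *Tmlhe* ran from -0.00395 to 0.0991, *Acaa2* from -0.0106 to 0.0330, *Etfdh* from -0.0167 to 0.0357 and *Acadl* minus *Acadm* from -0.0403 to 0.0783. The cause of these shifts was not tested. Members near background (*Cpt1b*, *Cpt1c*, *Acsl6*) are limited by signal over background.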
